A study of Caenorhabditis elegans with 8 samples.

Results

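The 10 genes described here, *unc-64*, *snb-1*, *ric-4*, *unc-13*, *unc-18*, *tom-1*, *snt-1*, *cpx-1*, *unc-10* and *rab-3*, encode proteins that release synaptic vesicles from neurons. They were chosen by name, as a reference for neuronal RNA as a whole, and not by their values. Earlier results of these data were known when they were chosen. All array probes whose sequence name or RefSeq transcript belongs to one of these genes were taken. This gave 35 probes for 10 genes, out of 43603 probes in all, of which 34266 could be paired with one of 19794 gene names.

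RNA came from whole hermaphrodite *Caenorhabditis elegans* embryos at the pretzel stage, the last stage before hatching. One group carried *aptf-1(gk794)*, a mutation in a gene for an AP2 transcription factor that acts in the sleep-active neuron RIS, and the other was the wild-type strain N2. Each genotype had 4 samples of about 3000 hand-picked embryos grown at 21.5°C, and each sample was hybridised alone to a one-colour Agilent array. The methods call these biological samples, but no source used here says whether they came from separate cultures, so p-values measure only the spread between these samples.

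A synaptic vesicle fuses when SNARE proteins on the vesicle and on the plasma membrane zip together. Synaptobrevin (*snb-1*) sits on the vesicle, while syntaxin (*unc-64*) and SNAP-25 (*ric-4*) sit on the plasma membrane. Other proteins hold this machinery ready, sense the calcium that triggers release, and keep vesicles at the active zone. These proteins act in most or all neurons, whereas RIS is a single neuron. In RNA from whole embryos, fewer neurons and less RNA per neuron cannot be told apart.

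All 35 probes were well above background on all 8 arrays. The 75th percentile of probe intensity ranged from 2283 to 3713 between arrays, 79.4% to 83.1% of probes were well above background, and no spot was saturated. Correlations between arrays over genes lay between 0.973 and 0.995. The arrays lay on 2 slides, with replicates 1 and 2 of both genotypes on one slide and replicates 3 and 4 on the other. Below, a level is a log2 intensity from which the array's 75th percentile was subtracted, as a mean over the probes of a gene. A difference is the *aptf-1* mean minus the N2 mean on this log2 scale. A gene was called when its adjusted p in limma, a linear model fitted across all genes, was under 0.05 and its fold change was at least 1.5.

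The mutated gene itself checked the labels. The level of *aptf-1* was -1.55 ± 0.19 (SD, n = 4) in the mutant and 0.51 ± 0.22 (SD, n = 4) in N2, so the mutant signal was 24.1% of N2 (limma adjusted p = 0.00215). Whether its single probe lies in the altered part of the gene was not determined. The level of *flp-11*, a gene for FMRFamide-like neuropeptides made in RIS, was 0.78 ± 0.11 (SD, n = 4) in the mutant and 2.32 ± 0.25 (SD, n = 4) in N2, which is 34.3% of N2 (limma adjusted p = 0.00621). In both cases all 4 mutant samples were below all 4 N2 samples.

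None of the vesicle release genes changed by this test. Of the 10 genes, 0 were called higher and 0 lower in limma, and 0 had even an unadjusted p under 0.05. Over all 20655 genes tested, 8 were called (0.0387%), with 0.00484% of all genes higher and 0.0339% lower in the mutant, and 634 (3.07%) had an unadjusted p under 0.05. A plain per-gene test, run as an alternative, gave 1 of the 10 genes, *unc-18*, an unadjusted p under 0.05, against 3.48% of all genes. It called 0 of the 10 after Benjamini-Hochberg adjustment. Of the 35 probes, 0 were called, against 18 of 35690 probes tested (0.0504%), and 0 had an unadjusted p under 0.05, against 2.98% of all probes. The median difference over the 10 genes was 0.041, with 7 genes above 0 and 3 below, and the median over all genes tested was -0.017. Leaving out 1 array moved the median of the 10 genes to between -0.027 (without N2 replicate 1) and 0.14 (without N2 replicate 4).

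A p that misses the threshold does not show equal levels, so the intervals say more. The 95% interval of the difference stayed within a 1.5-fold change in either direction for 9 of the 10 genes, all but *unc-64*. Over all genes tested this held for 67.7%. The count belongs to the main scaling, and it was not repeated under other settings. With median centring the standard error of the difference was 0.27 for *cpx-1* and 0.21 for *unc-64*, against 0.23 and 0.25 here. Which gene has the widest interval therefore depends on the scaling. The median residual SD within a genotype was 0.156 for the 10 genes and 0.215 for all genes.

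**Figure D1:**
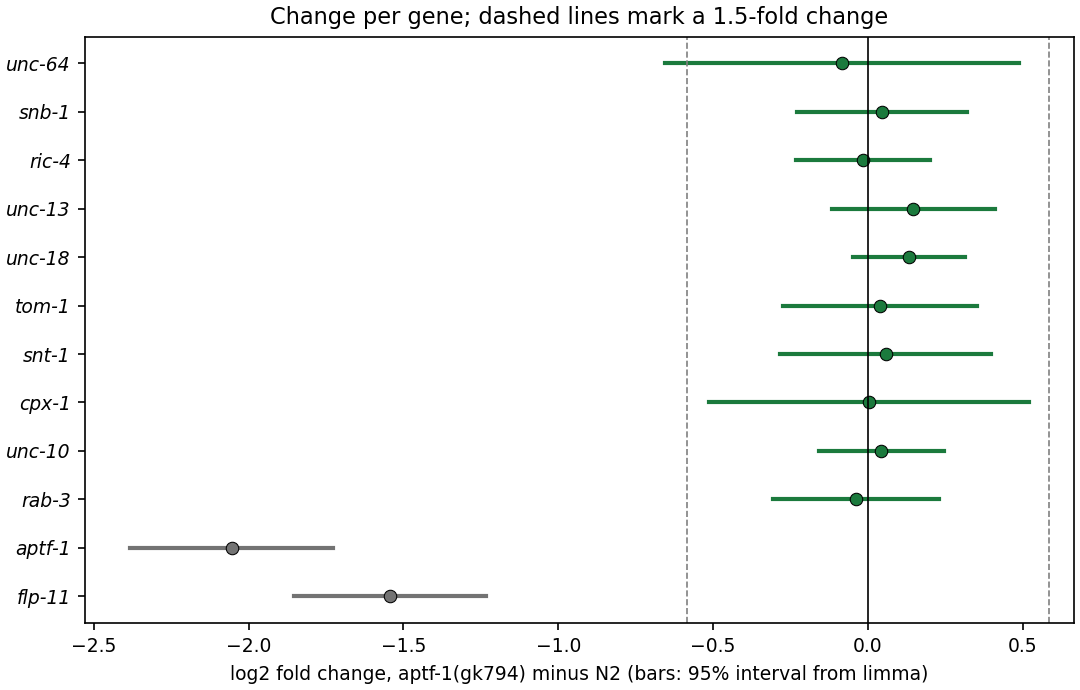
The log2 fold change (x axis, *aptf-1(gk794)* minus N2) of the 10 vesicle release genes in green, and of *aptf-1* and *flp-11* in grey, with bars for the 95% interval from limma (n = 4 arrays per genotype) and dashed lines at a 1.5-fold change. The 10 genes lie between -0.08 and 0.15, and only the bar of *unc-64* crosses a dashed line, while *flp-11* lies at -1.54 and *aptf-1* at -2.06.

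The 3 SNARE genes had levels that overlapped between the genotypes. For *snb-1*, the vesicle SNARE synaptobrevin, the level was 3.30, 3.32, 3.57 and 3.38 in *aptf-1* replicates 1 to 4 and 3.18, 3.30, 3.30 and 3.61 in N2 replicates 1 to 4. The highest and the lowest of these 8 samples were both N2. The difference was 0.046 with a 95% interval from -0.23 to 0.32 (limma adjusted p = 1.00 for each of the 10 genes).

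For *ric-4*, which encodes SNAP-25, the level was 2.94, 3.08, 2.85 and 2.99 in the mutant and 2.89, 2.94, 2.96 and 3.13 in N2. Here too the samples interleaved, and the difference was -0.016 (95% interval -0.23 to 0.20). Its 4 probes agreed closely, with differences from -0.04 to 0.01. The ends of that interval are 0.851 and 1.15 times N2.

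Over all 7 of its probes and in the main scaling, the syntaxin gene *unc-64* was the most variable of the 10. Its level was -2.95, -3.63, -3.74 and -3.21 in the mutant and -2.79, -3.43, -3.16 and -3.81 in N2. Both genotypes therefore held samples with high and with low signal, and the range within N2 was 1.02 on the log2 scale. The difference of -0.083 had a 95% interval from -0.66 to 0.49, that is from 0.635 to 1.40 times N2. All 7 of its probes had a difference below 0, between -0.15 and -0.04.

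On arrays with a median local background of 31.5 to 39, 5 of those 7 probes were dim, at 50.1 to 147 after background subtraction. Without them, the 2 bright probes put *unc-64* at 0.88, 0.61, 0.49 and 0.75 in the mutant and 1.06, 0.57, 0.89 and 0.41 in N2. The order of the samples was nearly the same, with N2 replicate 1 highest and N2 replicate 4 lowest. The difference was then -0.052 with a narrower 95% interval, from -0.42 to 0.32, which stays within a 1.5-fold change. The residual SD of *unc-64* was then 0.24, below the 0.36 of *cpx-1*. This choice of probes was made after the values were seen.

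**Figure D2:**
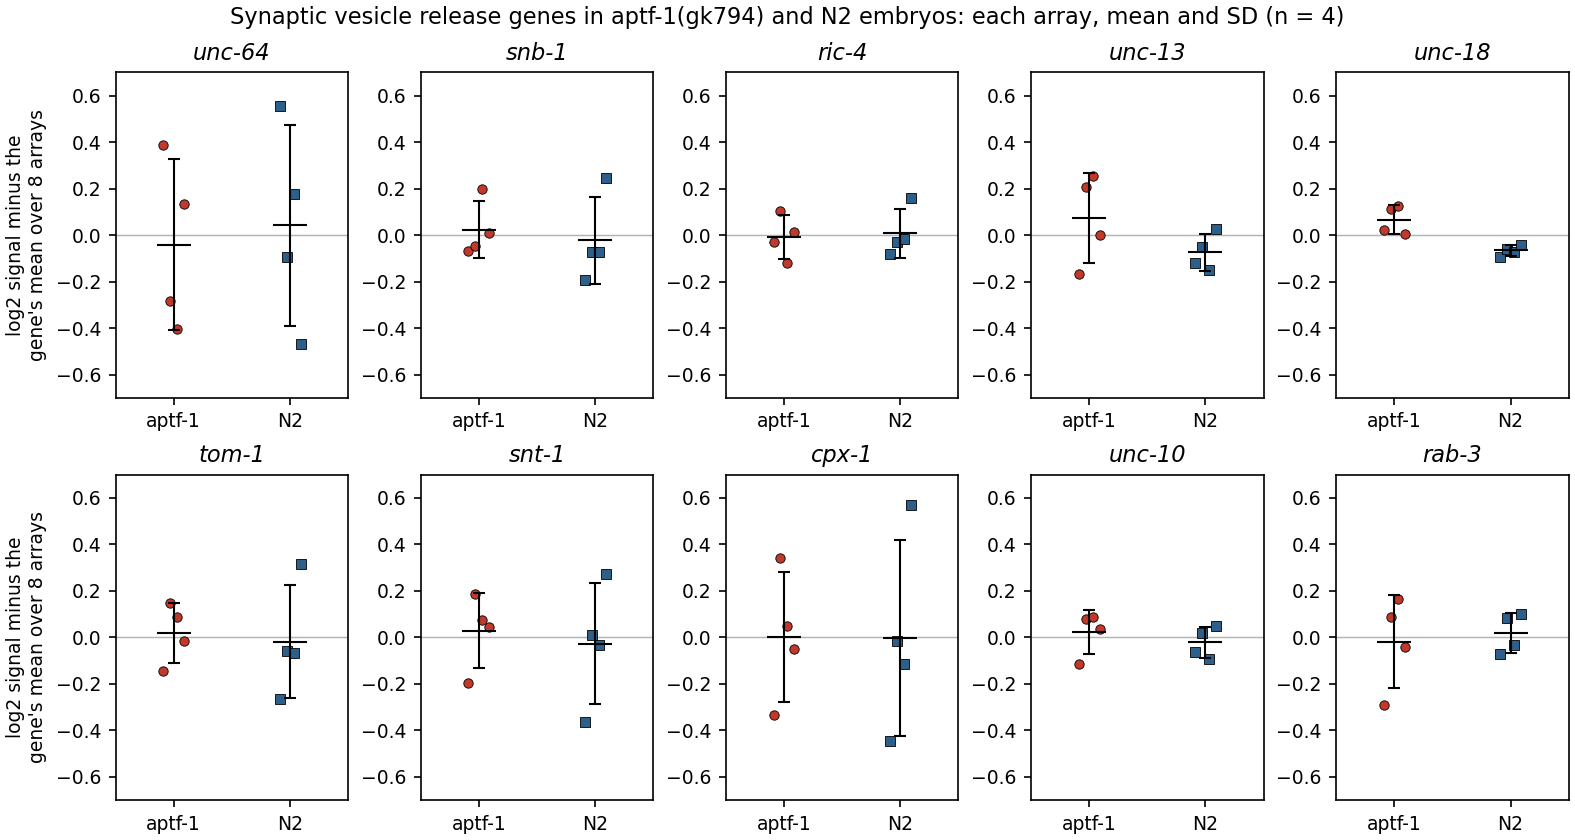
The log2 level of each gene on each array, minus its mean over the 8 arrays (y axis), for 4 *aptf-1(gk794)* samples (red circles) and 4 N2 samples (blue squares), with the mean and SD. The groups overlap in every panel except *unc-18*, and *unc-64* and *cpx-1* have the widest spread within a genotype.

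Of the 3 genes that prepare SNAREs for fusion or limit it, *unc-13* and *unc-18* had the highest differences of the 10 genes, and neither passed the test. The protein of *unc-13* primes docked vesicles by opening syntaxin. Its single probe read 1.08, 1.46, 1.51 and 1.25 in the mutant and 1.13, 1.201, 1.10 and 1.28 in N2. The highest values were 2 of the mutant samples, and the lowest value was a mutant sample as well. The difference was 0.15 (95% interval -0.12 to 0.41).

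The protein of *unc-18* binds syntaxin and guides SNARE assembly. Its level was -0.29, -0.19, -0.19 and -0.31 in the mutant and -0.40, -0.37, -0.38 and -0.35 in N2. All 4 mutant samples were above all 4 N2 samples, which was the case in 1 of the 10 genes, while the groups of 2.08% of all genes did not overlap in one direction or the other. The difference was small, at 0.13 (95% interval -0.05 to 0.31, limma adjusted p = 1.00).

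The separation of *unc-18* appeared in the mean over all 7 of its probes and was lost when a dim probe was left out. No single probe of the gene separated the genotypes. The probe for transcript F27D9.1b was dim, at intensities from 76.6 to 238, and ran from -3.58 in N2 replicate 1 to -5.15 in N2 replicate 4. Of the 6 probes for F27D9.1c, 5 had differences between 0.10 and 0.21 and the other -0.04. Without the dim probe the levels were 0.34, 0.44, 0.46 and 0.36 in the mutant and 0.13, 0.35, 0.22 and 0.45 in N2, which overlap, with a difference of 0.11 (95% interval -0.11 to 0.34).

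The gene *tom-1* encodes tomosyn, which binds syntaxin and limits priming. It read 0.25, 0.54, 0.48 and 0.38 in the mutant and 0.12, 0.33, 0.32 and 0.71 in N2. The N2 samples spread beyond the mutant samples at both ends. The difference was 0.039 (95% interval -0.28 to 0.35), and its 3 probes gave 0.09, 0.03 and 0.00.

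Among the genes of calcium-triggered release, *snt-1* encodes synaptotagmin, the calcium sensor on the vesicle. Its level was 1.33, 1.72, 1.61 and 1.57 in the mutant and 1.17, 1.54, 1.497 and 1.80 in N2. N2 replicates 1 and 4 were the lowest and the highest of the 8 samples. The difference was 0.057 (95% interval -0.28 to 0.40). The 3 probes for transcript F31E8.2a had differences from 0.07 to 0.13, and the 2 probes for F31E8.2b had -0.12 and 0.08.

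Complexin, encoded by *cpx-1*, clamps assembled SNAREs until calcium arrives. Its level was 1.41, 2.08, 1.79 and 1.69 in the mutant and 1.30, 1.72, 1.63 and 2.31 in N2. The genotype means, 1.74 ± 0.28 and 1.74 ± 0.42 (SD, n = 4 each), nearly coincided. N2 replicate 4 was nonetheless 2.02-fold above N2 replicate 1. The 95% interval of the difference of 0.0037 ran from 0.701 to 1.43 times N2.

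At the active zone, *unc-10* encodes RIM, a scaffold that gathers vesicles and calcium channels. Its level, over 3 of its 4 probes, was 0.83, 1.03, 1.04 and 0.98 in the mutant and 0.89, 0.97, 0.86 and 1.00 in N2. These samples interleaved, and the difference was 0.044 (95% interval -0.16 to 0.25). The fourth probe lacked values in *aptf-1* replicates 1 and 2, where its spots were marked as outliers, and it was left out of the gene's level.

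The probes of *unc-10* spread more than the gene value shows. The 3 probes for T10A3.1b had differences from -0.10 to -0.05, while the probe for T10A3.1a had 0.28, the highest of all 35 probes (95% interval -0.10 to 0.67). That probe read -1.02, -0.67, -0.37 and -0.87 in the mutant and -0.72, -1.08, -1.001 and -1.26 in N2. Mutant replicates 1 and 4 lay among the N2 samples, so the groups overlapped. The difference between the probes was not tested.

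The small GTPase of *rab-3* marks vesicles and binds RIM. Its level was 2.35, 2.73, 2.81 and 2.60 in the mutant and 2.57, 2.73, 2.61 and 2.74 in N2. Mutant replicate 1 was lowest and mutant replicate 3 highest, with N2 in between. The difference was -0.039 (95% interval -0.31 to 0.23). This level rests on 1 of 2 probes, since the other lacked values in *aptf-1* replicate 3 and N2 replicate 1, and that other probe gave -0.04 over 6 arrays.

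**Figure D3:**
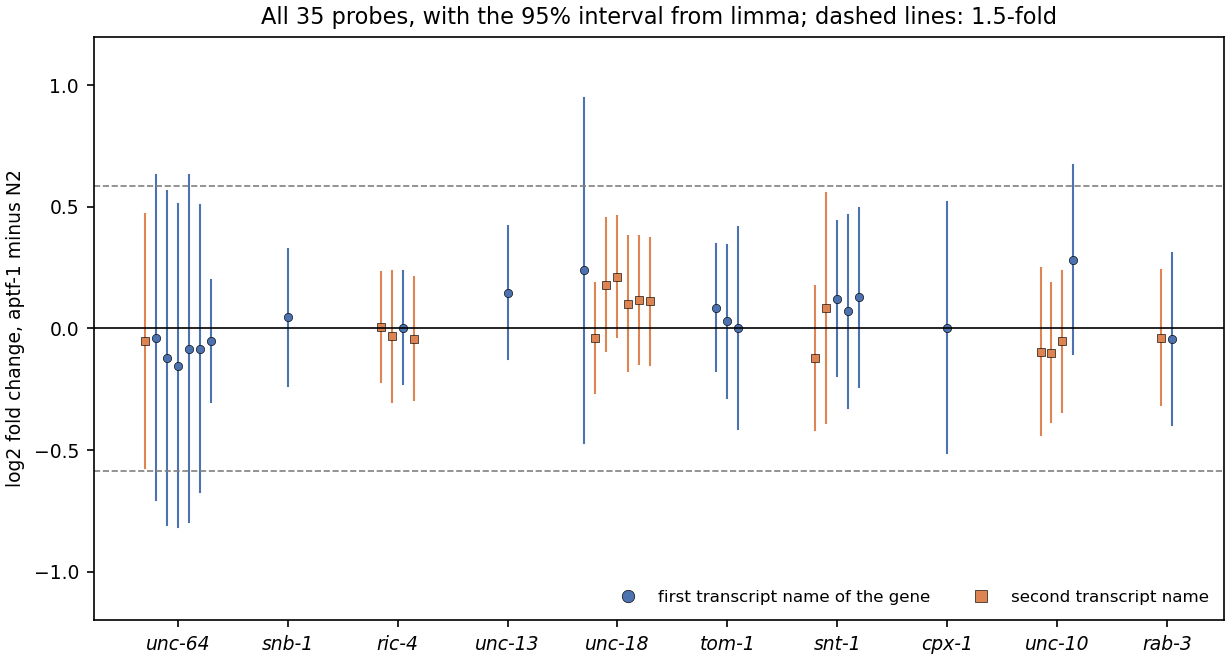
The log2 fold change (y axis, *aptf-1* minus N2) of each of the 35 probes with its 95% interval from limma, grouped by gene, with blue circles and orange squares for the first and second transcript name of a gene in alphabetical order and dashed lines at 1.5-fold. Every interval includes 0, and the probe values run from -0.15 to 0.28.

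For most of these genes, single samples of one genotype differed by more than the genotype means did. The range among the 4 N2 samples exceeded the difference between genotypes for 9 of the 10 genes, all but *unc-18*. The range among the 4 mutant samples did so for the same 9. Without its dim probe, *unc-18* ran from 0.13 to 0.45 within N2, at a difference of 0.11. A range of single samples commonly exceeds a difference of means where nothing changes. The share over all genes was not computed, so these counts are a description only. Between N2 replicates 1 and 4 alone, *cpx-1* differed by 1.01, *snt-1* by 0.63 and *tom-1* by 0.58, each higher in replicate 4. In the same pair *unc-64* was 1.02 lower in replicate 4.

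The 10 genes were not independent of each other across the arrays. The mean deviation of the 10 genes from their own means was -0.093, 0.093, 0.052 and 0.014 in *aptf-1* replicates 1 to 4, and -0.114, -0.027, -0.047 and 0.122 in N2 replicates 1 to 4. Replicate 1 of both genotypes was thus low, and N2 replicate 4 was high. The genotype means of this value were 0.016 ± 0.080 and -0.016 ± 0.100 (SD, n = 4 each). On the first slide the genotypes differed by 0.070, and on the second by -0.0045.

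Syntaxin ran against the rest. Over the 8 arrays *unc-64* had a Pearson correlation of -0.97 with the mean of the other 9 genes. Each of the others correlated positively with the mean of its fellows, from 0.44 for *unc-18* to 0.96 for *tom-1*, with 0.93 for *snt-1* and 0.91 for *cpx-1*. The 7 probes of *unc-64* each had a negative value, from -0.99 to -0.79, and the 2 bright probes together had -0.93. For *unc-18* the value was 0.80 without its dim probe, against 0.44 with it. Of the 28 probes of the other genes, 4 were below 0 as well, at -0.64 and -0.50 for *unc-18* and at -0.14 (over 6 arrays) and -0.0016 for *unc-10*. The points share arrays and their scaling, and these values are a description only.

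The sign held under other scalings. With quantile normalization, median centring, normexp background correction or the deposited log2 values, the correlation of *unc-64* ranged from -0.95 to -0.90, and those of the other 9 stayed above 0. The median local background of an array correlated at 0.71 with *unc-64* and at -0.83 with the mean of the other 9 genes over the 8 arrays. Its part in the pattern was not tested. Without *unc-64*, the mean deviation of the 9 genes was 0.023 ± 0.127 in the mutant and -0.023 ± 0.157 in N2 (SD, n = 4 each).

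**Figure D4:**
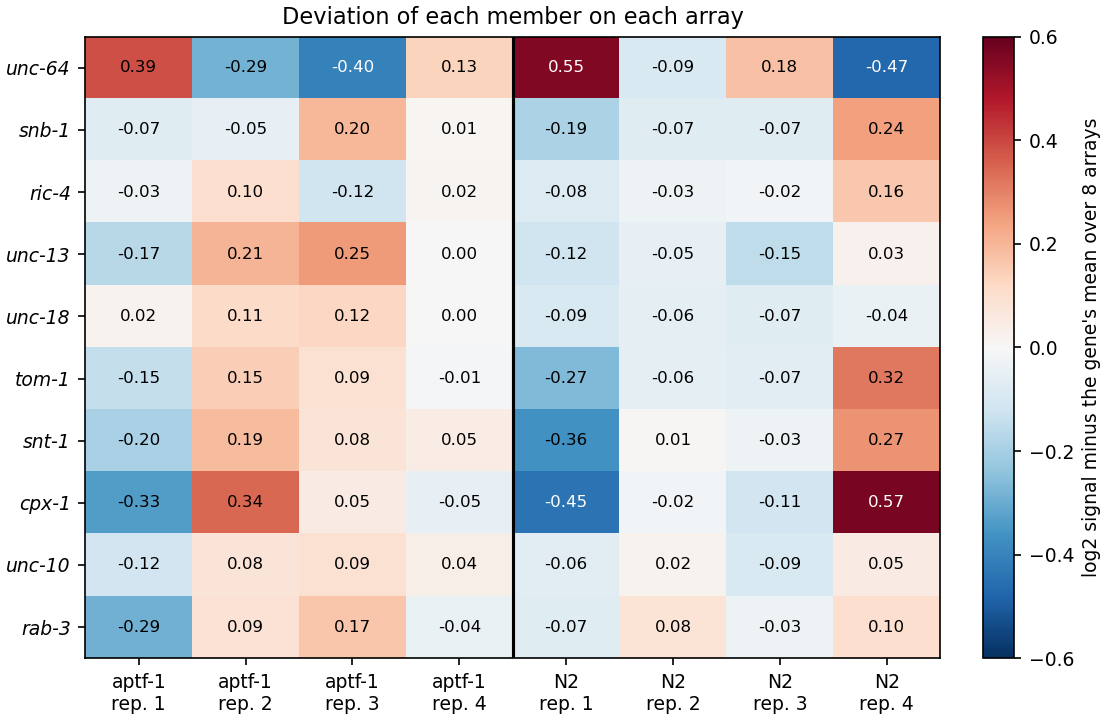
The deviation of each gene's log2 level from its mean over the 8 arrays (colour and printed value), with genes in rows and samples in columns, mutant left and N2 right of the black line. In N2 replicate 1 *unc-64* is at 0.55 while the other genes are below 0, and in N2 replicate 4 it is at -0.47 while 8 of the others are above 0.

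The level of *flp-11* was also taken relative to the mean of the 10 genes on each array. The deviation of *flp-11* minus the mean deviation of the 10 genes on the same array was -0.79 ± 0.07 (SD, n = 4) in the mutant and 0.79 ± 0.15 (SD, n = 4) in N2. In the mutant it ran from -0.83 to -0.69 and in N2 from 0.64 to 0.99. The difference of -1.58 is that of *flp-11* alone, -1.54, minus that of the mean over the 10 genes, 0.033. Its closeness to -1.54 therefore only restates that the latter is small. The comparison is given as a description, with no test.

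Of the genes outside this group, 5 had the highest correlation with the mean over the 10 genes across the 8 arrays. They were *frpr-18*, which encodes a neuropeptide receptor (0.98), *sip-1*, a small heat shock protein gene (0.98), *sca-1*, which encodes the calcium pump of the endoplasmic reticulum (0.98), *idhg-1*, for a subunit of isocitrate dehydrogenase (0.97), and an unnamed transcript (0.97). Their differences between genotypes lay between 0.01 and 0.10, and none was called. The median correlation over 20502 genes with values on all arrays was -0.10, with 4.17% of them above 0.8 and 10.71% below -0.8.

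The wider machinery of the synapse was described with 6 lists, which held 68 tested genes. None was called in either direction, and 0 had an unadjusted limma p under 0.05. Their median difference was 0.013, with 38 genes above 0 and 30 below, and 61 of them (89.7%) had a 95% interval within a 1.5-fold change. Their correlations with the mean over the 10 genes had a median of -0.04, with 4 genes above 0.8 (5.88%) and 9 below -0.8 (13.2%).

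Among 10 tested genes of the active zone and of docking, the median difference was 0.027. The ends were *rbf-1*, for rabphilin, at -0.11 and *cla-1*, for the active zone protein clarinet, at 0.11. Among 10 genes of vesicle proteins and transport the median was 0.060, from -0.09 for *sng-1*, for synaptogyrin, to 0.18 for *snn-1*, for synapsin. In this list the groups of *unc-104*, the kinesin that carries synaptic vesicles, did not overlap, with 0.59 ± 0.02 in the mutant and 0.49 ± 0.04 in N2 (SD, n = 4 each) and a 95% interval of the difference from -0.07 to 0.28. Over the 68 list genes this was 1 gene (1.47%), against 2.08% of all genes.

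Of 11 genes of vesicle endocytosis, the median was 0.034, between -0.16 for *unc-57*, for endophilin, and 0.12 for *chc-1*, the clathrin heavy chain. Of 13 genes of calcium channels and G protein control of release, the median was 0.018. Here *egl-30*, for the Gq alpha subunit, was at -0.10, and *dgk-1*, a diacylglycerol kinase that opposes release, at 0.29 (95% interval -0.05 to 0.63). For *dgk-1*, too, the levels of the genotypes overlapped, and its 1 probe was faint, at -5.37 in the mutant and -5.66 in N2.

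Relatives of the SNAREs and of synaptotagmin, many of which act outside neurons, had a median of -0.065, with 3 of 18 tested genes above 0. Their lowest value was -0.27 for *snap-29*, a SNAP-25 relative of general membrane traffic, and their highest 0.23 for *snt-4*, a synaptotagmin. Some genes of this list were faint, among them *snb-6* and *snt-3*, with levels of -6.80 and -6.84 in N2. Among 6 other pan-neuronal genes the median was 0.019, from -0.29 for *rgef-1*, a Ras guanine nucleotide exchange factor, to 0.22 for *unc-33*, for a CRMP protein of axon growth. The 95% intervals of these last pair were wide, from -0.86 to 0.27 and from -0.75 to 1.18.

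The spread of the pan-neuronal genes within N2 resembled that of *unc-64* in part. Between N2 replicates 1 and 4, *unc-33* was 2.26 and *rgef-1* 1.17 lower in replicate 4, as was *ric-19*, by 0.58, and *maco-1*, by 0.16. In the same pair *unc-76* was 0.86 and *unc-119* 0.28 higher in replicate 4. Over the 8 arrays 3 of these 6 genes had a correlation below -0.8 with the mean over the 10 release genes, and none had one above 0.8. Some neuronal genes were therefore high on the arrays where others were low. This was not confined to neuronal genes. The intestine marker *ifb-2* had a correlation of 0.83 with the same mean, and the epidermis marker *vab-10* one of -0.86. Over 20502 genes, 4.17% were above 0.8 and 10.71% below -0.8.

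**Figure D5:**
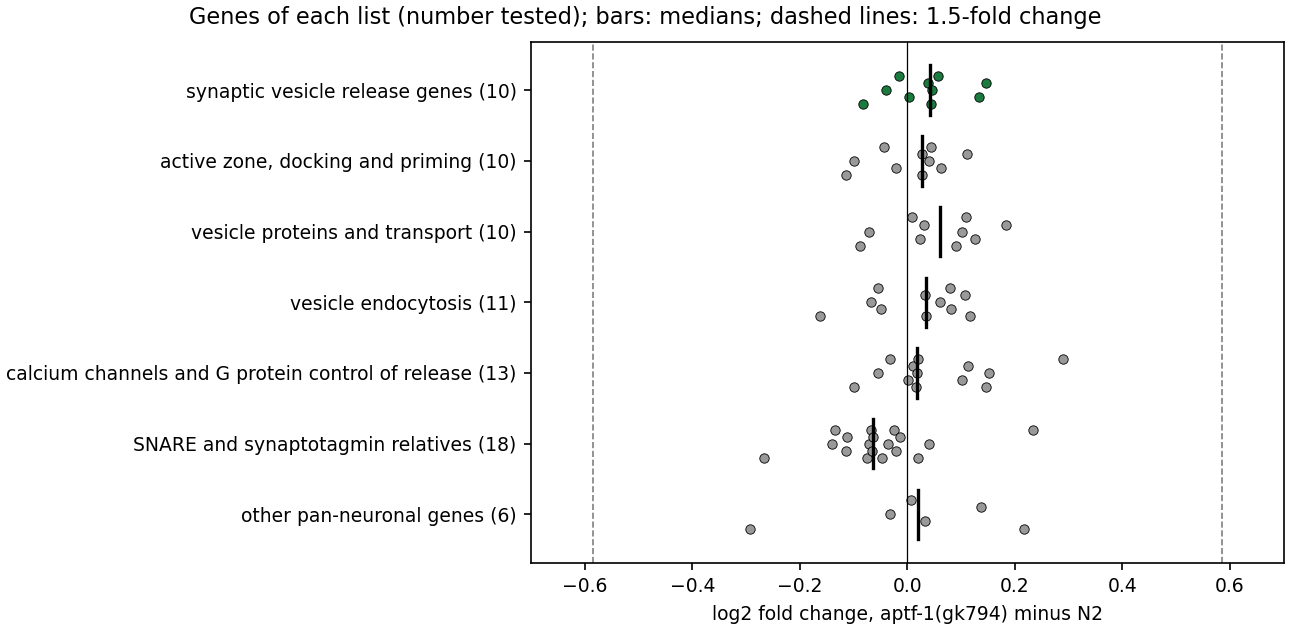
The log2 fold change (x axis, *aptf-1(gk794)* minus N2) of each tested gene of the 10 vesicle release genes (green) and of 6 further lists (grey), with a black bar at each median and dashed lines at a 1.5-fold change. All points lie between -0.29 and 0.29, inside the dashed lines.

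Markers of other tissues were all detected in these whole embryos, and none of 23 was called in either direction. Median differences were 0.042 for 5 genes of body wall muscle (*unc-15* -0.14 to *unc-54* 0.13), -0.00054 for 5 of intestine (*elt-7* -0.06 to *ges-1* 0.13) and 0.0060 for 5 of pharynx (*myo-2* -0.11 to *pha-4* 0.19). They were 0.15 for 4 of epidermis, all above 0 (*vab-10* 0.02 to *dpy-7* 0.33), and 0.017 for 4 of germ line (*glh-2* -0.30 to *pgl-3* 0.24), of which *glh-1* had values in only 2 N2 samples. The median of the 3 other germ line genes was 0.12. The mean deviation of the epidermal markers ran from -0.07 to 0.28 in the mutant and from -0.37 to 0.03 in N2. Its genotype difference was -0.0026 on the first slide and 0.32 on the second. The highest value was that of *aptf-1* replicate 3 and the lowest that of N2 replicate 4, both on the second slide.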

How the data were processed

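The authors deposited Agilent Feature Extraction 10.7.3.1 output, with background-subtracted intensity, median spot signal and background per spot, and a log2 table whose columns share 1 distribution and were read as quantile-normalized. Probe names were matched to genes through a RefSeq table of another build, so no coordinates are given. Control spots (1417 of 45220 per array) and outlier spots (62 to 188) were left out. A probe entered the fit if 4 or more of the 8 arrays had it well above background. Fits used limma 3.58.1 (R 4.3.3), Benjamini-Hochberg adjusted over 20655 genes or 35690 probes. A gene's level is the mean over its probes with values on all arrays or, where it has none (143 genes), over the values there are. The fit was tested on simulated data.

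The genes and lists were chosen with earlier results of these data known. Named are the 10 genes, *aptf-1*, *flp-11*, each list's highest and lowest gene and the 5 genes most alike. Chosen after seeing them were *unc-104*, the correlations of *ifb-2* and *vab-10*, and values for N2 replicates 1 and 4. One listed gene had no match and another was not above background. The alternatives were other scalings, normexp (offset 50), filters, outliers kept, a trended fit, array weights, and slide or replicate blocks. Further ones were arrays left out, the log2 table, probe medians and a plain t-test per gene. Added after seeing the data was the use of bright probes only (intensity of at least 1000). Deviations of same-numbered samples correlated at 0.49, 0.27, -0.12 and 0.08 for *aptf-1* replicates 1 to 4. The best correlation with another number was -0.0084, 0.22, 0.17 and 0.22. The same number was thus the closer for replicates 1 and 2 but not for 3 and 4. The main fit did not take numbers as pairs, and the replicate block did.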

Additional observations from a re-analysis of the deposited data

How the results depend on the processing

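No vesicle release gene was called under any of 21 alternatives, and no probe of these genes under the 19 that were run on probes. The smallest adjusted p of a member gene was 0.744. Of 210 values of the 10 genes, 187 kept their sign and 23 turned, and the size of the difference reached 0.25 on the log2 scale at most. With all arrays, *ric-4* turned to 0.027 (quantile normalization and the deposited log2 values), 0.017 (array weights) and 0.0048 (probe medians), *rab-3* to 0.0038 (quantile) and 0.039 (deposited values), *cpx-1* to -0.086 (normexp) and *unc-10* to -0.054 (probe medians). With each array left out in turn, differences ran from -0.25 to 0.087 for *unc-64*, -0.013 to 0.14 for *snb-1*, -0.053 to 0.034 for *ric-4*, -0.044 to 0.15 for *tom-1*, -0.055 to 0.16 for *snt-1*, -0.14 to 0.19 for *cpx-1*, -0.10 to 0.051 for *rab-3*, 0.086 to 0.23 for *unc-13*, 0.11 to 0.15 for *unc-18* and 0.020 to 0.089 for *unc-10*. Without N2 replicate 1, *unc-64*, *snb-1*, *tom-1*, *snt-1* and *cpx-1* turned.

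The median of the SNARE and synaptotagmin relatives was -0.0048 with normexp, and that of the active zone list turned to -0.021. With array weights the endocytosis median was -0.0041 and the active zone median -0.00032. With an array left out, list medians ran from -0.024 to 0.034 (active zone), -0.019 to 0.059 (endocytosis), -0.019 to 0.056 (calcium and G protein) and -0.035 to 0.038 (pan-neuronal), and those of the other lists kept their sign. The count of all genes called was 5 with the replicate block, 5 with the plain t-test, and 7 to 10 with an array left out. Under the plain t-test *flp-11* (-1.54) had an adjusted p of 0.0937. The replicate block changed no call among the 10 genes. The cause of these shifts was not tested. Other scalings moved the median of all genes by less than 0.1. The dim probes of *unc-64* and *unc-18* and the 4 arrays per genotype limit what can be seen.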
